A study of Homo sapiens with 12 samples.

Results

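The genes described here are 42 cell cycle and DNA replication genes, taken by gene name from a list made with earlier results of these data known. All 42 were found once among the 58735 gene names of the count tables. They were divided into 18 replication genes (MCM2 to MCM7, MCM10, PCNA, RRM1, RRM2, POLA1, CDC6, CDT1, CDC45, GINS1, GINS2, E2F1 and E2F2) and 24 mitotic genes, from MKI67 to MYBL2. CDC45, a subunit of the replicative helicase, was counted with the replication genes although the rule that names the replication families does not list it. By that rule the mitotic genes are the rest of the list, MYBL2 among them, whatever their timing. RNA was measured in established human neuroblastoma cell lines, KELLY, which carries an amplified MYCN gene, and SK-N-AS, which does not. The dose of Erastin was 1 µM in KELLY and 2 µM in the other line. Erastin, which blocks the antiporter system Xc that imports cystine, was given for 24 h, and the controls of both lines received DMSO. Each of the 4 groups had 3 samples, which the design text calls biological triplicates and the methods describe as wells seeded in triplicate. Dose and line therefore cannot be told apart in any comparison of the responses.

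Cells copy their DNA once per division. MCM2 to MCM7 form the ring of the replicative helicase, CDC6 and CDT1 load it onto origins, CDC45 and the GINS proteins activate it, and E2F transcription factors switch on this gene set as cells leave G1. Most of the mitotic genes are expressed later, toward G2 and mitosis. They are largely under the DREAM, B-MYB and FOXM1 complexes that bind the CHR element of their promoters. Cyclins, kinases, spindle motors and kinetochore proteins are among their products.

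Total counts ranged from 24169796 to 29835670 per sample, and every one of the 42 genes had at least 235 counts in each library (NUSAP1 was the lowest), so all 42 passed the filter on low counts in every comparison. Levels are given as CPM, counts scaled to library size, corrected by the TMM method on a single scale over the 12 samples. The libraries of a group did not share a single trend of abundance with GC content. Spearman's rho across genes (not independent of each other) between GC content and the level of a library relative to its line ran from -0.72 to 0.55 in KELLY with DMSO and from -0.51 to 0.78 with Erastin. In SK-N-AS it ran from -0.59 to 0.61 with DMSO and from -0.32 to 0.32 with Erastin. Results are therefore also given with this trend removed from each library. Of 10 sympathetic neuroblast markers, 10 had a mean of at least 1 CPM in KELLY and 9 in SK-N-AS, where MYCN was at 0.04 to 0.41 CPM. All 7 mesenchymal markers were above that level in both lines, with a summed level of 236 to 295 CPM in KELLY and 2364 to 2741 CPM in SK-N-AS. Of 7 blood cell markers, HBB alone had such a mean in KELLY and PTPRC alone in SK-N-AS, at 454 to 620 CPM. HBB was at 8.08 CPM in KELLY DMSO replicate 1 and 3.73 CPM in KELLY Erastin replicate 1. It was at most 0.11 CPM in the other KELLY libraries, and at 1.47 CPM in SK-N-AS Erastin replicate 1. CD3E, HBA1, LYZ, CD14 and NKG7 stayed under 1 CPM in every library.

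The promoters of the genes at the head of each comparison are shown so that the short elements searched for can be seen in place. The runs are the 100 bases before the RefSeq start site (GRCh38.p14), 5′ to 3′ on the strand of the gene. Capitals mark matches on either strand to an E2F site (TTTGGCGC, TTTCGCGC, TTTCCCGC or TTTGCCGC), to the CHR element (TTTGAA or TTTAAA) or to CCAAT. The first 5 are the replication genes with the largest difference between the lines and the last 3 are the mitotic genes with the smallest p for Erastin in KELLY.
GINS2 (chr16:85688955-85689054, minus strand): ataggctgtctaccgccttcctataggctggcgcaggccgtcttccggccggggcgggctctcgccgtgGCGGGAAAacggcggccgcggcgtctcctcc
E2F2 (chr1:23531234-23531333, minus strand): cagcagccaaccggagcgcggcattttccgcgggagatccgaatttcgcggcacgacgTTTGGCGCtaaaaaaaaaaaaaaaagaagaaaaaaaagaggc
CDT1 (chr16:88803689-88803788, plus strand): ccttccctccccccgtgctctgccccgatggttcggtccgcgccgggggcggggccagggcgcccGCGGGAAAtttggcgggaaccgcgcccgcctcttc
RRM2 (chr2:10122468-10122567, plus strand): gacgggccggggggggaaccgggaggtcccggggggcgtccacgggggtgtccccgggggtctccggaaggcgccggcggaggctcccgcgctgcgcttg
E2F1 (chr20:33686386-33686485, minus strand): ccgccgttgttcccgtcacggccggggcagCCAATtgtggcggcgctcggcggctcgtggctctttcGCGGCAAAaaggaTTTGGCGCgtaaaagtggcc
CCNB1 (chr5:69167050-69167149, plus strand): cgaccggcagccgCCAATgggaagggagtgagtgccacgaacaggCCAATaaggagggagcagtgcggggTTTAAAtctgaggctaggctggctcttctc
BUB1 (chr2:110678064-110678163, minus strand): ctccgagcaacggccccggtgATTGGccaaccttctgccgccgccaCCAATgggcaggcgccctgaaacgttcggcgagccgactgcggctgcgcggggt
KIF23 (chr15:69414249-69414348, plus strand): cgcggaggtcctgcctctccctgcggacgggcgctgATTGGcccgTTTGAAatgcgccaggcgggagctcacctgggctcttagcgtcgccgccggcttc

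GINS2, E2F2, CDT1 and E2F1 carry an E2F match in these runs and RRM2 carries none of the 3 elements. CCNB1 and KIF23 hold a CHR match a short distance downstream of CCAAT, and BUB1 holds CCAAT matches without a CHR match. Of the 42 genes, 35 matched a RefSeq promoter window of 250 bases before to 50 after the start. MCM4, MCM5, TTK, AURKA, TPX2, BIRC5 and FOXM1 were not matched. Over the whole window an E2F match was present in 10 of 16 replication genes (62.5%) and 2 of 19 mitotic genes (10.5%), against 3.21% of all 35116 promoters. A CHR match was present in 1 of 16 replication genes (6.25%) and 15 of 19 mitotic genes (78.9%), against 24.6% of all promoters. CCAAT was found in 13 of 16 replication genes (81.2%) and 16 of 19 mitotic genes (84.2%), against 34.4% of all promoters. The shares describe letters in a window and not binding. Matches of the E2F list can share bases with each other, and in MKI67 a CHR match shares bases with CCAAT.

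With DMSO alone, 20 of the 42 genes were higher in KELLY and 4 were higher in SK-N-AS at a Benjamini-Hochberg adjusted p under 0.05 in edgeR's quasi-likelihood test. Among all 17089 genes tested, 30.9% were called higher in KELLY and 30.3% higher in SK-N-AS. The replication genes stood mostly on the KELLY side, with 14 of 18 higher, 1 lower and 3 not passing the test, and a median log2 fold change of 0.84, against 0.02 over all genes. Of the 24 mitotic genes, 6 were higher in KELLY, 3 were lower and 15 did not pass, with a median of 0.26. The threshold of the methods combines unadjusted p ≤ 0.05 with a fold ≥ 1.5 in either direction, and it was passed by 17 of the 42 genes, against 57.6% of all genes. In 21 of the 42 genes every KELLY sample lay above every SK-N-AS sample, and in 4 every KELLY sample lay below. The share of all genes without overlap was not counted for this comparison. These counts, and the lack of overlap given for single genes below, therefore cannot show whether these genes stand apart from others.

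**Figure D1:**
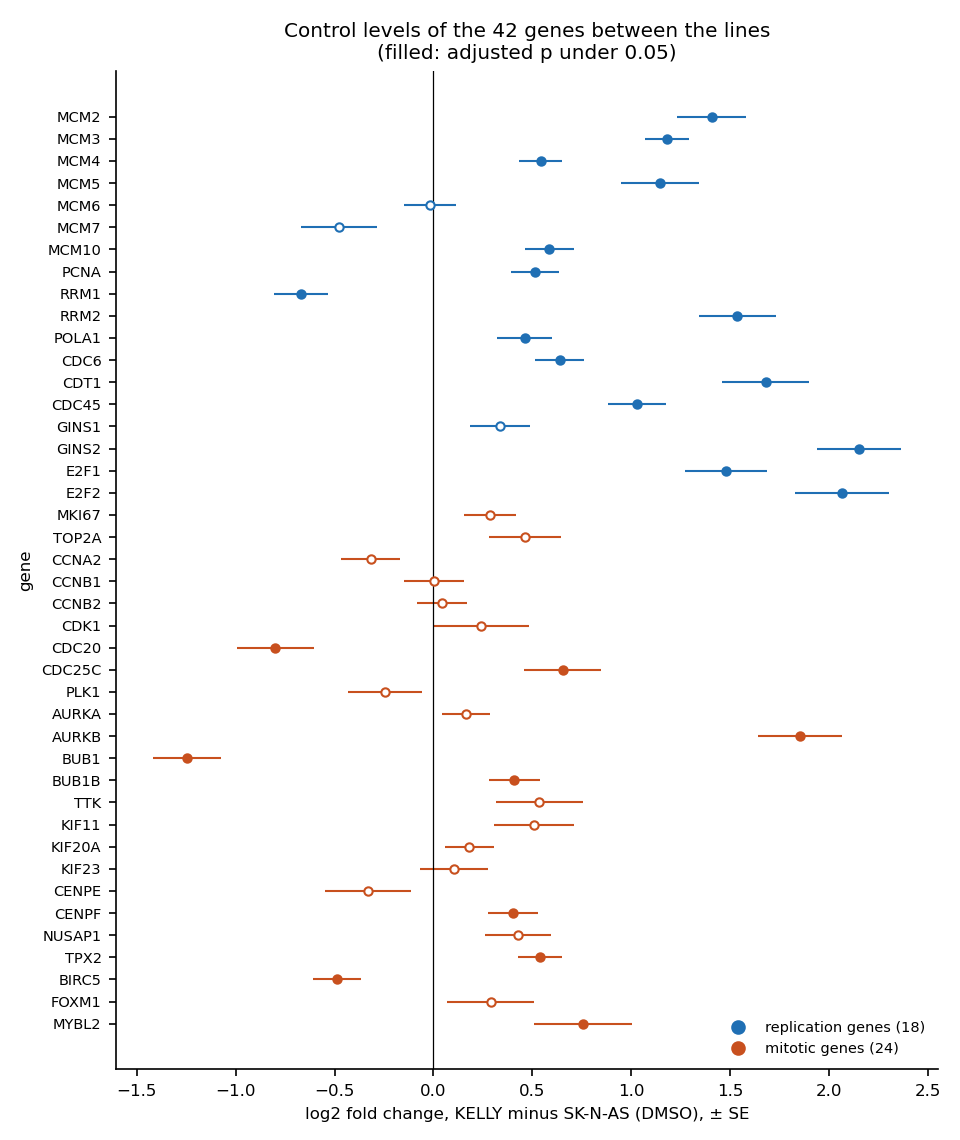
Log2 fold change of each of the 42 genes between KELLY and SK-N-AS with DMSO (x axis, KELLY minus SK-N-AS, bars are the SE of the edgeR fit, n = 3 per line). Blue genes are replication genes and orange genes mitotic genes, and filled points had an adjusted p under 0.05. GINS2 lies farthest to the right at 2.15 and BUB1 farthest to the left at -1.25.

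GINS2, a subunit of the GINS complex that activates the helicase, showed the largest difference of the 42 genes. It had 41.2, 67.9 and 63.4 CPM in the 3 KELLY samples and 14.3, 12.6 and 12.4 CPM in the 3 SK-N-AS samples. All KELLY values lay above all SK-N-AS values, and the log2 fold change was 2.15 (SE 0.21, edgeR adjusted p = 3.2e-05), which is 4.44-fold. GINS1, of the same complex, had 82.8 to 104 CPM in KELLY and 65.4 to 83.1 CPM in SK-N-AS, values that overlapped, and did not pass (log2 fold change 0.34, SE 0.15, edgeR adjusted p = 0.0869).

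Both E2F activators among the 42 genes were higher in KELLY. E2F2 had 65.9, 104 and 84.0 CPM in KELLY and 25.9, 19.9 and 15.5 CPM in SK-N-AS, without overlap (log2 fold change 2.07, SE 0.24, edgeR adjusted p = 8.8e-05). E2F1 had 127, 217 and 161 CPM in KELLY and 66.5, 62.5 and 54.0 CPM in SK-N-AS, again without overlap (1.48, SE 0.21, edgeR adjusted p = 0.000271). For both genes replicate 1 was the lowest of the KELLY controls and the highest of the SK-N-AS controls.

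Origin licensing and helicase genes were unequal. CDT1, a loading factor of the helicase, had 75.7, 132 and 106 CPM in KELLY and 37.6, 33.1 and 28.2 CPM in SK-N-AS, without overlap (log2 fold change 1.68, SE 0.22, edgeR adjusted p = 0.000187). CDC6, its partner in loading, differed less, with 131 to 144 CPM in KELLY and 84.0 to 92.9 CPM in SK-N-AS (0.64, SE 0.12, edgeR adjusted p = 0.00191). CDC45 reached 107 to 137 CPM in KELLY and 55.4 to 65.4 CPM in SK-N-AS (1.03, SE 0.15, edgeR adjusted p = 0.000302). In each of these 3 genes the lowest KELLY sample exceeded the highest SK-N-AS sample.

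The subunits of the MCM ring, which assemble in equal numbers, did not differ alike. MCM2 (log2 fold change 1.41, SE 0.18), MCM3 (1.18, SE 0.11), MCM5 (1.15, SE 0.20) and MCM4 (0.54, SE 0.11) were higher in KELLY, with edgeR adjusted p between 2.6e-05 for MCM3 and 0.00232 for MCM4. MCM6 did not pass, with 182, 154 and 157 CPM in KELLY and 155, 175 and 173 CPM in SK-N-AS (-0.02, SE 0.13, edgeR adjusted p = 0.926). MCM7 had 201, 337 and 274 CPM in KELLY and 410, 398 and 334 CPM in SK-N-AS. Its 2 groups overlapped by a single pair of values, and it did not pass (-0.48, SE 0.19, edgeR adjusted p = 0.0567). Removal of the GC trend brought MCM7 past the threshold at -0.51 (edgeR adjusted p = 6.1e-05). MCM10, an initiation factor outside the ring, was higher in KELLY (0.59, SE 0.12, edgeR adjusted p = 0.00299).

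The subunits of ribonucleotide reductase, which makes deoxynucleotides, went in opposite directions. RRM2, the regulated small subunit, had 544, 338 and 393 CPM in KELLY and 131, 150 and 163 CPM in SK-N-AS (log2 fold change 1.54, SE 0.19, edgeR adjusted p = 0.000142). RRM1, the large subunit, had 198, 159 and 179 CPM in KELLY and 263, 286 and 312 CPM in SK-N-AS (-0.67, SE 0.14, edgeR adjusted p = 0.00254). Neither gene overlapped between the lines, and RRM1 was the only replication gene called higher in SK-N-AS. PCNA, the sliding clamp (0.51, SE 0.12, edgeR adjusted p = 0.00529), and POLA1, the catalytic subunit of polymerase alpha (0.46, SE 0.14, edgeR adjusted p = 0.0189), were moderately higher in KELLY.

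Among the mitotic genes the differences were spread to both sides. AURKB, the kinase of the chromosomal passenger complex, had 67.03, 116 and 92.4 CPM in KELLY and 27.1, 27.1 and 22.8 CPM in SK-N-AS (log2 fold change 1.85, SE 0.21, edgeR adjusted p = 8.1e-05). BIRC5 (survivin), a member of the same complex, went the other way, with 229 to 267 CPM in KELLY and 336 to 376 CPM in SK-N-AS (-0.49, SE 0.12, edgeR adjusted p = 0.00733). Both were free of overlap. AURKA, the kinase of the spindle poles, had 130 to 136 CPM in KELLY and 114 to 127 CPM in SK-N-AS and did not pass (0.17, SE 0.12, edgeR adjusted p = 0.261), whereas TPX2, its activator, was higher in KELLY (0.54, SE 0.11, edgeR adjusted p = 0.00265).

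Members that act in the spindle checkpoint or are held back by it were BUB1, BUB1B, TTK and CDC20. BUB1, a checkpoint kinase, had 75.4, 51.5 and 57.3 CPM in KELLY and 137, 147 and 157 CPM in SK-N-AS (log2 fold change -1.25, SE 0.17, edgeR adjusted p = 0.000243). BUB1B, which encodes its relative BUBR1, was higher in KELLY (0.41, SE 0.13, edgeR adjusted p = 0.0211). TTK, another checkpoint kinase, did not pass (0.54, SE 0.22, edgeR adjusted p = 0.0629). CDC20, the activator of the anaphase-promoting complex that the checkpoint holds back, had 78.0, 129 and 104 CPM in KELLY and 196, 192 and 159 CPM in SK-N-AS (-0.80, SE 0.19, edgeR adjusted p = 0.00634). CENPF, a kinetochore protein (0.40, SE 0.13, edgeR adjusted p = 0.0212), CDC25C, the phosphatase that activates CDK1 (0.65, SE 0.20, edgeR adjusted p = 0.0176), and MYBL2, which encodes B-MYB (0.76, SE 0.25, edgeR adjusted p = 0.0256), were higher in KELLY.

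The KELLY values of MYBL2 were 244, 501 and 402 CPM, against 260, 232 and 192 CPM in SK-N-AS, so that 1 KELLY sample lay inside the SK-N-AS range. The calls of BUB1B, MYBL2, CENPF, POLA1 and CDC25C were each lost in at least 3 of 17 alternative analyses. The cyclins CCNB1 (log2 fold change 0.00, SE 0.15), CCNB2 (0.04, SE 0.13) and CCNA2 (-0.32, SE 0.15), CDK1 (0.24, SE 0.24), and MKI67 (0.28, SE 0.13), the proliferation antigen Ki-67, did not pass. The other mitotic genes that did not pass, TOP2A, PLK1, KIF11, KIF20A, KIF23, CENPE, NUSAP1 and FOXM1, had log2 fold changes between -0.33 and 0.51. With the GC trend removed 37 of the 42 genes were called, 29 higher in KELLY and 8 higher in SK-N-AS, where 76.8% of all genes were called in either direction. The trend was taken relative to the mean of each line, so a GC trend between the lines was not removed. Over the 42 genes, which are not independent, Pearson's r between this log2 fold change and exon GC content was 0.44 as measured and 0.43 after the correction.

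**Figure D2:**
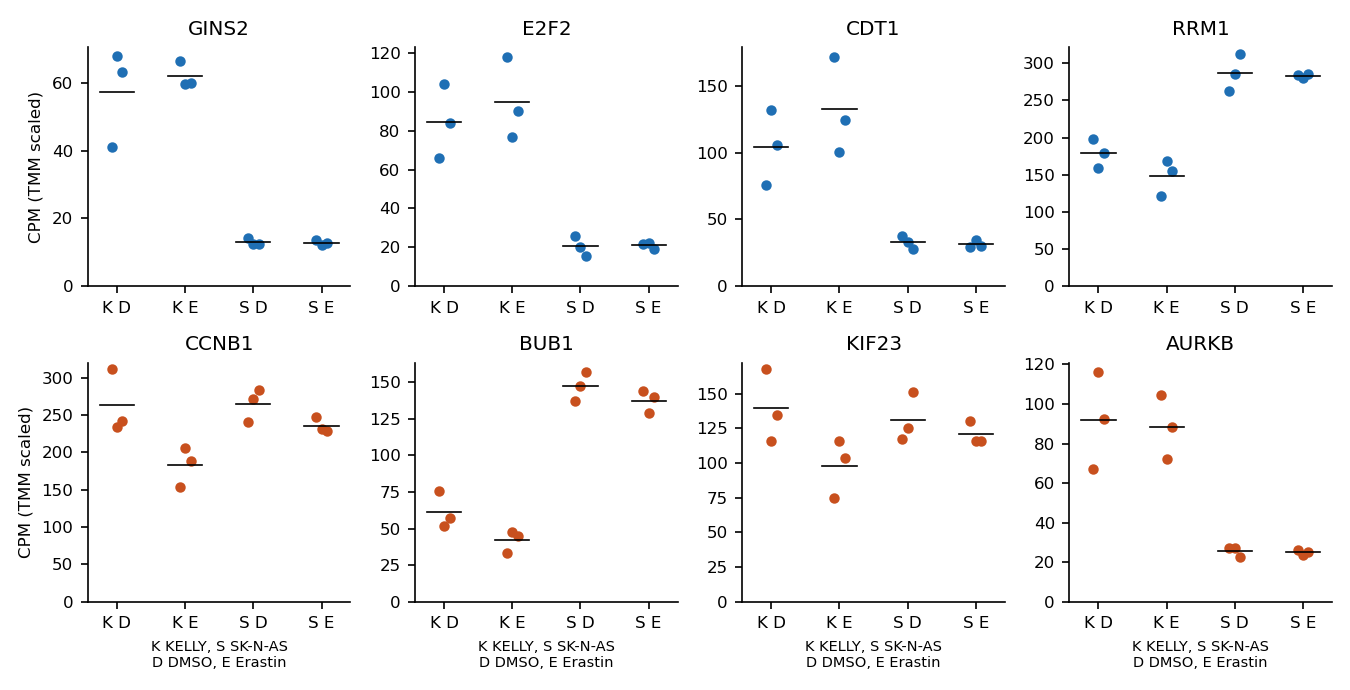
CPM of 8 genes in every library (y axis, TMM scaled, starting at 0), 3 points per group with the group mean as a line, for KELLY (K) and SK-N-AS (S) with DMSO (D) or Erastin (E). GINS2, E2F2, CDT1 and AURKB sit higher in KELLY, RRM1 and BUB1 higher in SK-N-AS, and CCNB1, BUB1 and KIF23 are lower with Erastin in KELLY.

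Per kilobase of exon, the median control level of the replication genes was 41.8 CPM per kb in KELLY and 20.6 in SK-N-AS, and that of the mitotic genes 43.5 and 36.6. PCNA had the highest level per kb of the 42 genes in both lines, at 201 in KELLY and 142 in SK-N-AS. NUSAP1, a spindle-associated protein, had the lowest in both, at 3.62 and 2.72. In the GENCODE release 44 annotation 86.8% of the NUSAP1 exon bases also belong to other genes of the same strand, among them OIP5-AS1, so its level is uncertain. BUB1B shares 10.2% of its exon bases with PAK6 and the read-through transcript BUB1B-PAK6, and MCM7 less than 1% with MIR93. Genes of the opposite strand overlap 23.6% of the MCM2 exon bases and at most 15.9% in any other of the 42 genes, and the strand setting of the counting was not given in the sources used here.

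As a summary over each set, the mean log2 CPM of the replication genes minus that of the mitotic genes was 0.20 ± 0.13 in the KELLY controls and -0.49 ± 0.09 in the SK-N-AS controls (SD over 3 samples). All 3 KELLY values (0.05, 0.32 and 0.22) lay above all 3 SK-N-AS values (-0.40, -0.48 and -0.58). The summed level of the 42 genes was 9691 ± 45.3 CPM in the KELLY controls and 7480 ± 171 CPM in the controls of SK-N-AS (SD, n = 3 for both). In bulk samples, more cells in a given phase and more RNA per cell cannot be told apart.

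Within the replication genes, the 10 with an E2F match in the promoter window had a median log2 fold change between the lines of 1.29, with a range from -0.02 (MCM6) to 2.15 (GINS2). The 6 without a match had a median of 0.55, from -0.67 (RRM1) to 1.54 (RRM2). The 2 ranges overlapped, and the difference was not tested. The 15 mitotic genes with a CHR match had a median of 0.24, from -0.80 to 0.65. The 4 without had a median of 0.22, with a wider range from -1.25 (BUB1) to 1.85 (AURKB).

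The wider gene lists were uneven in the same comparison. Of 46 further replication genes 23 were higher in KELLY and 5 were lower, with a median log2 fold change of 0.42. DNA2, a nuclease and helicase of Okazaki fragment processing, was higher in KELLY (1.57, SE 0.21, edgeR adjusted p = 0.000233), and ORC5, a subunit of the origin recognition complex, was lower (-1.85, SE 0.18, edgeR adjusted p = 2.9e-05). Of 58 further mitotic genes 18 were higher in KELLY and 9 were lower, with a median of 0.28. The share of all genes higher in KELLY was 30.9%, close to that of the further mitotic genes, and 30.3% of all genes were lower. CDC25A, a CDK-activating phosphatase, was at 105 CPM in KELLY and 22.5 CPM in SK-N-AS on average (2.24, SE 0.17, edgeR adjusted p = 6.2e-06). GTSE1 (1.76, SE 0.14) and SGO1, the protector of centromeric cohesion (1.28, SE 0.22), were also higher in KELLY, and TACC3, a spindle microtubule protein, was lower (-1.33, SE 0.20).

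A further list, called G1 genes here, holds cyclins, CDKs, CDK inhibitors and the RB and E2F families. It also holds CDK7, CCNH, MYBL1, LIN9, LIN37, LIN52 and LIN54, so not all of its genes are specific to G1. Of its 32 tested genes, 16 were higher in SK-N-AS, against 30.3% of all genes, and 5 were higher in KELLY, against 30.9% of all genes. Their median log2 fold change was -0.38, against 0.02 over all genes. The CDK inhibitor genes CDKN2A (-2.08, SE 0.20) and CDKN1C (-1.74, SE 0.41) and the cyclin gene CCND3 (-1.63, SE 0.30) were lower in KELLY, with edgeR adjusted p of 2.7e-05, 0.00519 and 0.00154. CDKN1C was close to detection, at 0.89 CPM on average in KELLY and 3.00 CPM in SK-N-AS. E2F6, a repressive member of the E2F family, was higher in KELLY (1.58, SE 0.18, edgeR adjusted p = 7.5e-05).

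With Erastin in KELLY, 0 of the 42 genes passed an adjusted p of 0.05 by edgeR (smallest adjusted p = 0.770) or by DESeq2. Among all 16258 genes tested, 0.00615% passed by edgeR, a single gene, and 31 genes passed by DESeq2. At an unadjusted p under 0.05 in edgeR, 3 of the 42 genes were lower with Erastin and 0 were higher, whereas 1.06% of all genes were lower. DESeq2 also gave 3, counted in either direction, and its share of all genes at that level was not counted. The threshold of the methods was met by 0 of the 42 genes and by 2.03% of all genes. The estimates lay mainly below 0, in 22 of 24 mitotic genes and 11 of 18 replication genes (33 of 42), against 49.5% of all genes. The median log2 fold change was -0.27 over the mitotic genes, -0.12 over the replication genes and 0.01 over all genes.

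**Figure D3:**
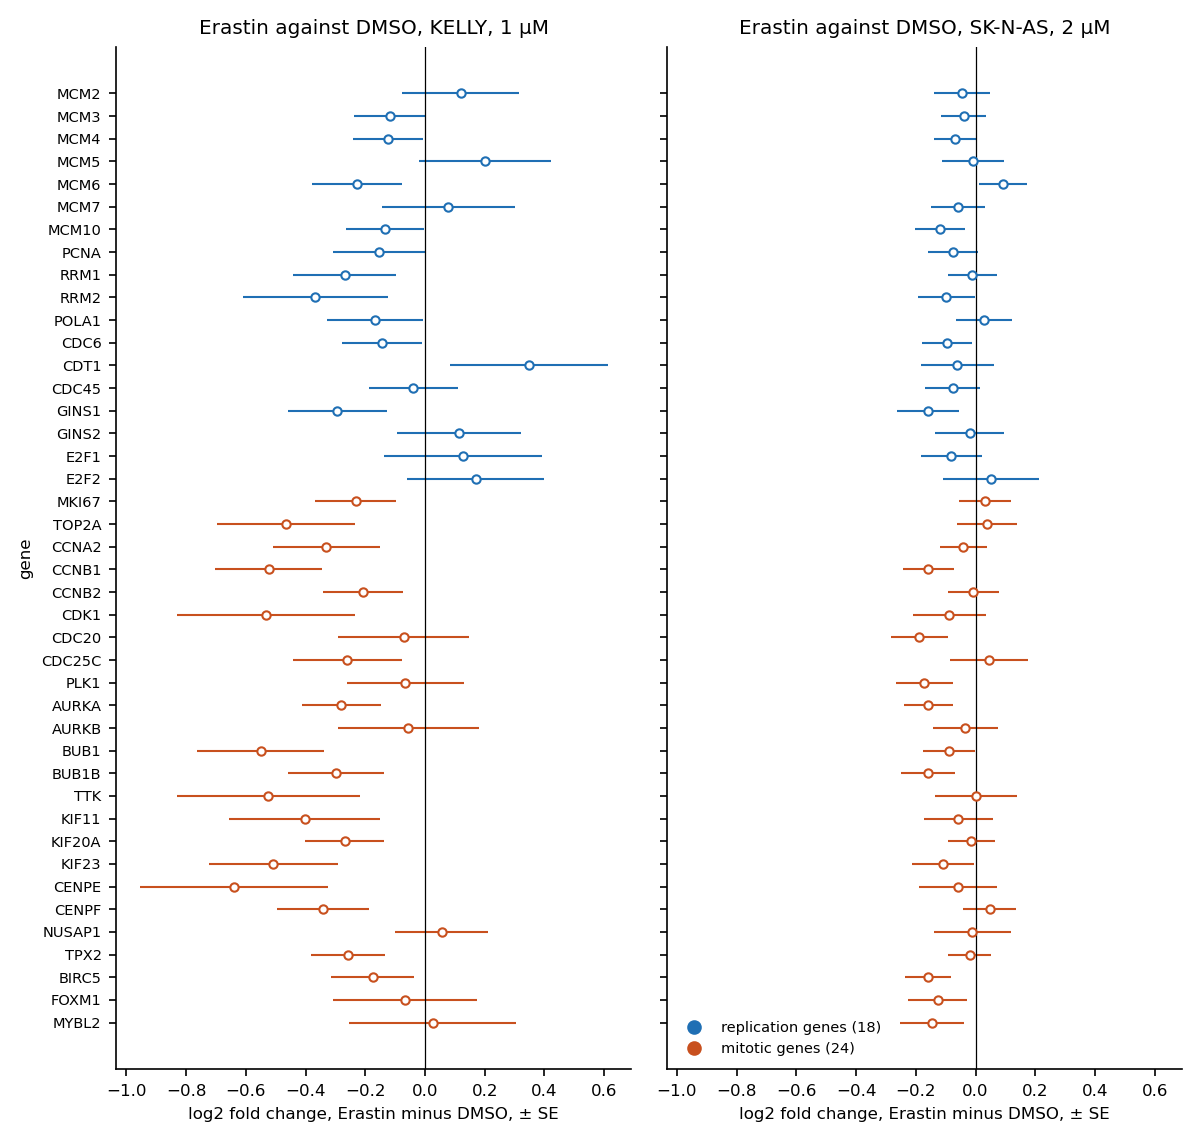
Log2 fold change of each of the 42 genes with Erastin against DMSO (x axis, bars are the SE of the edgeR fit, n = 3 per group) in KELLY at 1 µM (left) and SK-N-AS at 2 µM (right). Open points mark that no gene had an adjusted p under 0.05. In KELLY the values run from -0.64 (CENPE) to 0.35 (CDT1) and in SK-N-AS from -0.19 (CDC20) to 0.09 (MCM6).

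The 5 genes with the smallest p in KELLY were all mitotic. CCNB1, which encodes cyclin B1, the partner of CDK1 at mitotic entry, had 312, 234 and 242 CPM with DMSO and 154, 206 and 189 CPM with Erastin. All Erastin values lay below all DMSO values (log2 fold change -0.52, SE 0.18, unadjusted p = 0.0197 and edgeR adjusted p = 0.770). BUB1 had 75.4, 51.5 and 57.3 CPM with DMSO and 33.4, 47.7 and 44.7 CPM with Erastin, also without overlap (-0.55, SE 0.21, unadjusted p = 0.0336, edgeR adjusted p = 0.770).

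KIF23, the motor of the central spindle needed for cytokinesis, had 168, 116 and 135 CPM with DMSO and 75.0, 116 and 104 CPM with Erastin. Its highest Erastin value, 115.6 CPM, lay just under its lowest DMSO value, 116.3 CPM (log2 fold change -0.51, SE 0.21, unadjusted p = 0.0468, edgeR adjusted p = 0.770). CENPF had 741, 637 and 704 CPM with DMSO and 455, 622 and 564 CPM with Erastin (-0.34, SE 0.15, unadjusted p = 0.0584, edgeR adjusted p = 0.770). AURKA had 130, 136 and 131 CPM with DMSO and 101, 111 and 115 CPM with Erastin (-0.28, SE 0.13, unadjusted p = 0.0700, edgeR adjusted p = 0.770). In 4 of these 5 genes the Erastin replicate 1 was the lowest by a wide margin, and in AURKA the 3 Erastin values were close together.

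In 14 of the 42 genes every Erastin sample of KELLY was below every DMSO sample, and in 0 was it above, against 4.34% and 4.21% of all genes. Of these 14, 10 were mitotic (CCNA2, CCNB1, CCNB2, AURKA, BUB1, BUB1B, KIF20A, KIF23, CENPF and TPX2) and 4 were replication genes (MCM3, MCM4, MCM6 and MCM10). CENPE, a kinetochore motor, had the largest fitted decrease (log2 fold change -0.64, SE 0.32) and CDT1 the largest increase (0.35, SE 0.27), and both overlapped between groups.

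The fold changes in KELLY followed the GC content of the genes. Over the 42 genes, which share the same 6 libraries and are not independent, Pearson's r between log2 fold change and exon GC content was 0.86 and Spearman's rho 0.84. The exon GC content had a median of 46.1% in the mitotic genes (34.8 to 60.6%) and 49.7% in the replication genes (39.8 to 64.3%). With the GC trend of each library removed these correlations were 0.07 and 0.04, while the medians stayed at -0.27 for the mitotic and -0.10 for the replication genes. MYBL2 and CDC20, both rich in GC, moved from 0.03 and -0.07 to -0.29 and -0.33, and CENPE, poor in GC, from -0.64 to -0.35.

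**Figure D4:**
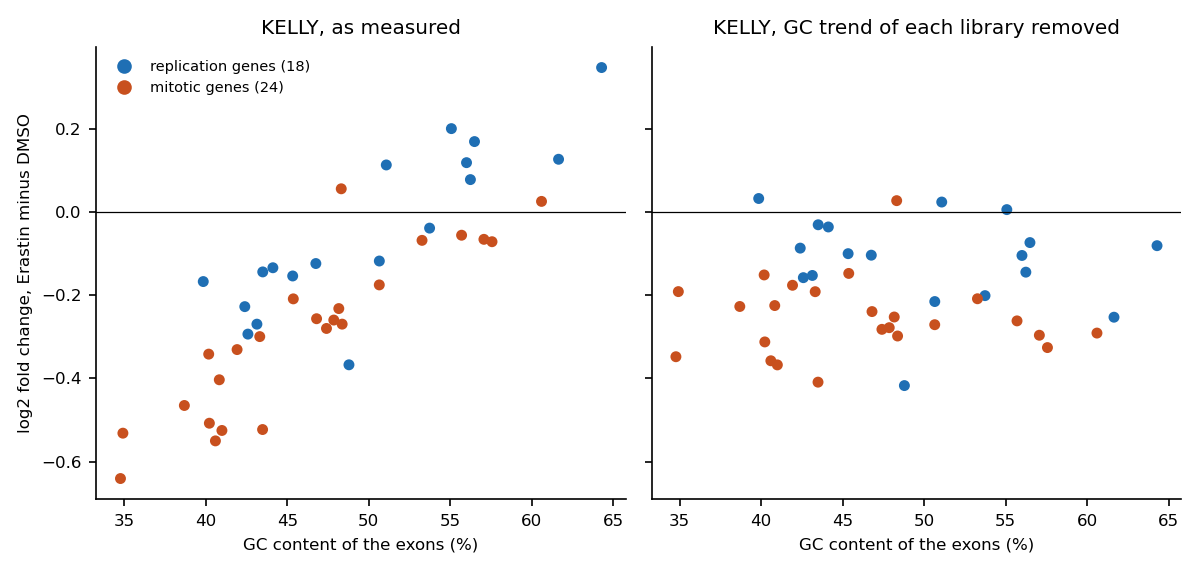
Log2 fold change with Erastin in KELLY (y axis) against the GC content of the exons in percent (x axis) for the 42 genes, as measured (left) and with the GC trend of each library removed (right). On the left the points climb with GC content (r = 0.86), and on the right the slope is gone (r = 0.07) and 38 of the 42 points lie below 0.

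With the trend removed, 19 of the 42 genes were lower with Erastin at an unadjusted p under 0.05 and 0 were higher, whereas 4.26% of all genes were lower at that level. Of the 19, 17 were mitotic and 2, MCM3 and E2F1, were replication genes. CCNB1 had the smallest p (log2 fold change -0.41, unadjusted p = 0.00112), followed by BUB1 (-0.36, unadjusted p = 0.00144) and KIF23 (-0.31, unadjusted p = 0.00167). None of the 42 passed the adjusted threshold (edgeR, smallest adjusted p = 0.243), which 0.183% of all genes did. CENPF weakened to -0.15 (unadjusted p = 0.145). In every corrected fit of Erastin the trend was taken relative to the line mean over both treatments. A GC trend of the treatment itself was therefore removed too. The offset came from the same libraries, and the corrected p leave out its uncertainty.

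The difference between the sets in KELLY was visible per sample. The mean log2 CPM of the mitotic genes was 7.36, 7.29 and 7.32 with DMSO and 6.89, 7.11 and 7.09 with Erastin, without overlap. That of the replication genes was 7.41, 7.61 and 7.54 with DMSO and 7.50, 7.43 and 7.48 with Erastin, within the DMSO range. The replication minus mitotic difference was 0.20 ± 0.13 with DMSO and 0.44 ± 0.15 with Erastin (SD, n = 3 each). The lowest value with Erastin, 0.3179, lay just above the highest with DMSO, 0.3167, so the groups touched without overlap. With the trend removed the difference was 0.241 to 0.254 with DMSO and 0.374 to 0.406 with Erastin, and both sets were lower with Erastin in every sample. The summed level of the 24 mitotic genes was 5537 ± 180 CPM with DMSO and 4505 ± 306 CPM with Erastin, and that of the 18 replication genes 4153 ± 209 and 3987 ± 154 CPM (SD, n = 3 each).

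**Figure D5:**
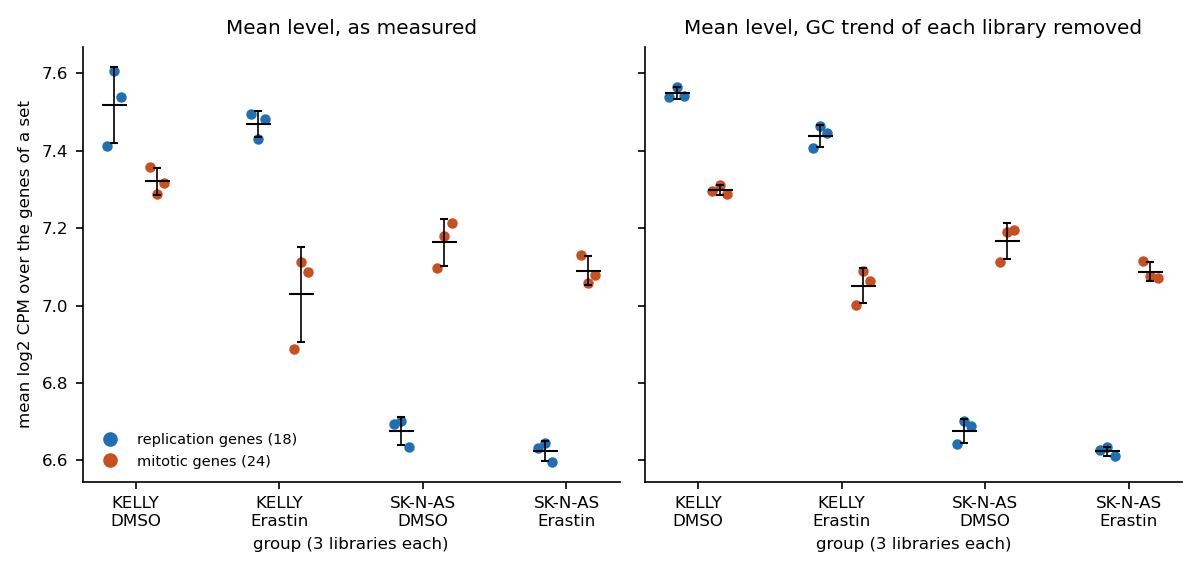
Mean log2 CPM over the 18 replication genes (blue) and the 24 mitotic genes (orange) in each library (y axis) by group (x axis), as measured (left) and with the GC trend of each library removed (right). Points are libraries and black bars the mean and SD (n = 3). The mitotic set sits at 7.29 to 7.36 in KELLY with DMSO and 6.89 to 7.11 with Erastin, and the replication set of SK-N-AS stays between 6.60 and 6.70.

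In SK-N-AS, 0 of the 42 genes passed an adjusted p of 0.05 for Erastin (edgeR, smallest adjusted p = 0.597), against 0.659% of all 16095 genes. At an unadjusted p under 0.05 the count was also 0 by edgeR and by DESeq2, against 8.77% of all genes in edgeR, and at the threshold of the methods it was 0 against 2.67%. The estimates were small. The median log2 fold change was -0.06 in both the replication and the mitotic genes and -0.01 over all genes, and no gene exceeded 0.19 in size, with SEs from 0.07 to 0.16. In 4 genes, MCM4, MCM10, AURKA and BIRC5, every Erastin sample was below every DMSO sample, and in 0 it was above, against 7.81% and 6.98% of all genes.

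The 5 genes with the smallest p in SK-N-AS were again mitotic. BIRC5 had 336, 376 and 342 CPM with DMSO and 307, 324 and 307 CPM with Erastin (log2 fold change -0.16, SE 0.08, unadjusted p = 0.0615, edgeR adjusted p = 0.597). AURKA had 114, 127 and 116 CPM with DMSO and 108, 108 and 102 CPM with Erastin (-0.16, SE 0.08, unadjusted p = 0.0782, edgeR adjusted p = 0.643). Both were free of overlap, although by a small distance. CDC20 (-0.19, SE 0.10), CCNB1 (-0.16, SE 0.09) and PLK1, a mitotic kinase (-0.17, SE 0.10), had overlapping values and edgeR adjusted p of 0.634, 0.661 and 0.683.

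With the GC trend removed, 10 of the 42 genes were lower in SK-N-AS at an unadjusted p under 0.05 and 0 were higher, against 10.8% of all genes that were lower at that level. BUB1B alone passed the adjusted threshold (log2 fold change -0.17, SE 0.05, edgeR adjusted p = 0.0497), which 6.55% of all genes passed. The replication minus mitotic difference was -0.49 ± 0.09 with DMSO and -0.47 ± 0.05 with Erastin (SD, n = 3 each), and it overlapped.

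The responses of the lines did not differ past the threshold in any of the 42 genes. The interaction of treatment and line was tested over the 12 samples. In edgeR 0 of 42 genes had an adjusted p under 0.05 (smallest adjusted p = 0.811), against 0.00548% of all 18239 genes. DESeq2 gave 0 as well, against 12 of all 18239 genes. At an unadjusted p under 0.05 there were 0 genes by edgeR, against 4.25% of all genes in edgeR. DESeq2 gave 3, and its share of all genes at that level was not counted. The median of the KELLY response minus the SK-N-AS response was -0.25 in the mitotic and -0.02 in the replication genes. CENPF had the smallest p (-0.38, SE 0.18, unadjusted p = 0.0522), followed by BUB1 (-0.45, SE 0.23), MCM6 (-0.31, SE 0.16), TPX2 (-0.23, SE 0.12) and KIF20A, a motor of cytokinesis (-0.25, SE 0.13), all with an edgeR adjusted p of 0.811. With the GC trend removed the mitotic median was -0.18, and 9 of the 42 genes had a lower response in KELLY at an unadjusted p under 0.05, against 4.20% of all genes. The adjusted threshold was passed by 0 of the 42 and by 0.103% of all genes.

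In the wider lists 0 genes passed the adjusted threshold for Erastin in either line or in the interaction in edgeR. DESeq2 called a single gene, a G1 gene in SK-N-AS, where it called 223 of all 16095 genes. At an unadjusted p under 0.05 in KELLY, edgeR gave 0 of 46 further replication genes and 3 of 58 further mitotic genes, CKS1B, CKS2 and PTTG1, all lower. The share of all genes lower at that level in edgeR was 1.06%. DESeq2 gave 0 and 6, counted in either direction, and its share of all genes at that level was not counted. In SK-N-AS edgeR gave 1 of each, UHRF1 and CDC25A, both lower, against 8.77% of all genes in either direction. In the interaction there were 0 and 2, CKS1B and KIF4A, with lower responses in KELLY, against 4.25% of all genes in either direction. After removal of the GC trend, 9 of the 46 further replication genes and 32 of the 58 further mitotic genes were lower in KELLY at an unadjusted p under 0.05, against 4.26% of all genes. In SK-N-AS 7 and 9 were lower, against 10.8% of all genes, and in the interaction 4 and 16 had a lower response in KELLY, against 4.20%. None of these further replication and mitotic genes passed the adjusted threshold of edgeR in these 3 corrected fits. The median log2 fold changes in KELLY were -0.31 over the further mitotic genes and -0.13 over the further replication genes, and in SK-N-AS -0.05 and -0.02. Of 32 G1 genes tested, CDKN1A, which encodes the CDK inhibitor p21, had 22.1, 38.8 and 31.6 CPM in KELLY with DMSO and 79.6, 44.2 and 58.1 CPM with Erastin, without overlap (log2 fold change 0.98, SE 0.28, unadjusted p = 0.00878, edgeR adjusted p = 0.770). With the GC trend removed its edgeR adjusted p was 0.0176 at a log2 fold change of 0.71, and that of its interaction 0.0368 at 0.85. In SK-N-AS it had 19.5 to 23.9 CPM with DMSO and 17.1 to 24.3 CPM with Erastin. In the same corrected fit of SK-N-AS 3 of the 32 G1 genes passed the adjusted threshold, against 6.55% of all genes. They were lower with Erastin, CCND1 (-0.34, edgeR adjusted p = 0.000363), E2F5 (-0.41, edgeR adjusted p = 0.0078) and E2F7 (-0.17, edgeR adjusted p = 0.0388). The genes of this paragraph were named after their values had been seen.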

How the data were processed

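RNA-seq was read from 12 samples, 3 in each of 4 groups taken from the sample labels. Paired-end reads were aligned by the authors to GRCh38 (aligner not given in the sources used here), and the raw counts per gene that the authors deposited came from HTSeq on GENCODE release 29, without normalization. Each line was fitted separately with edgeR 4.0.16 in R 4.3.3 (filterByExpr, TMM, quasi-likelihood test). DMSO samples of both lines were compared in 1 fit and the interaction over all 12 samples. P-values were adjusted by Benjamini-Hochberg over all genes tested. They measure the spread between these samples, which the design text calls biological triplicates and the methods describe as triplicate wells, and nothing further says that they came from separate cultures.

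All 42 genes are accounted for. Statistics are printed for those with an adjusted p under 0.05, or for the 5 smallest p, and for at most 5 genes in each direction from the wider lists. The members and lists were chosen with earlier results of these data known. GC content and exon length came from GENCODE release 44. The GC trend of each library relative to the mean of its line was removed with a loess offset (span 0.5, degree 2). Genes without a GC value were left out of that fit. The mean log2 CPM used a prior count of 2. The samples of each group were checked not to be copies. Fits were tested on simulated data with less spread than these data and without a GC trend of the libraries, so that test does not show how they perform here. Alternatives were DESeq2 1.42.0, scaling by RLE or by library size, limma-voom 3.58.1, other filters, protein-coding genes, a replicate block, the GC correction, 1 fit of all samples, and each replicate left out. A further marker gene is not reported here.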

Additional observations from a re-analysis of the deposited data

How the results depend on the processing

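For Erastin, 0 of the 42 genes were called in KELLY in all 18 alternatives, and the interaction gave 0 in all 22. In SK-N-AS the count was 1 with the GC trend removed, against 930 of all 14195 genes. It was 6 with the replicate block and the GC trend removed together, against 1445 of 14195. When a replicate was left out it was 0 to 2, with 2 without DMSO replicate 3, against 855 of 16433. The 6 and the 2 were all lower with Erastin. Between the lines the count of 24 became 37 with the GC trend removed, against 11501 of all 14970 genes. It was 20 to 28 when a replicate was left out, against 8956 to 11769 of all genes.

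Of the medians of log2 fold change, leaving out a replicate moved that of the replication genes in SK-N-AS to between -0.073 and -0.022 and that of the mitotic genes there to between -0.093 and 0.0052, the positive value being without DMSO replicate 3. The mitotic median between the lines ran from 0.20 to 0.26 and that of the interaction from -0.29 to -0.17, the latter without KELLY Erastin replicate 1. Without that sample the mitotic median for Erastin in KELLY was -0.22. The 3 members with an unadjusted p under 0.05 in KELLY became 0 without Erastin replicate 1 or replicate 3, 1 without DMSO replicate 3, 2 without DMSO replicate 1, 5 without DMSO replicate 2 and 6 without Erastin replicate 2. The share of all genes at that level is not given here for these fits. The causes were not tested.

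Replicate numbers gave no clear pairing of the samples. The correlation of same-numbered deviations was -0.49, -0.48 and -0.04 in KELLY and -0.01, 0.06 and 0.12 in SK-N-AS. Only for SK-N-AS replicate 3 were the same-numbered DMSO and Erastin samples each other's closest match. The deviations carry the GC trends of the libraries, so these correlations cannot decide whether samples shared a batch. With the replicate block, 0 members were called in KELLY, SK-N-AS and the interaction, and 19 between the lines. Over all genes the block gave 0 of 16258 in KELLY and 0 of 18239 in the interaction. In SK-N-AS it gave 308 of 16095, against 106 without it, and between the lines 9041 of 17089.

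The SEs of the 42 genes for Erastin were 0.12 to 0.32 on the log2 scale in KELLY, and those in SK-N-AS were 0.07 to 0.16, which limits the precision of each value.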
